A study of Mus musculus with 2 samples.

Results

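The cells described here are 270 neurons of septal explants from mouse embryos that carried messenger RNA of *Onecut2*, *Chodl* or *Isl1* and none or almost none of 5 genes, *Tbr1*, *Gad1*, *Gad2*, *Dlx5* and *Trp73*, that mark other neuron classes of the region. They make up 14.9% (exact Clopper-Pearson 95% interval 13.3 to 16.7%) of the 1809 neurons and 4.78% of the 5649 cells kept in that library, out of 20110 cell barcodes in the whole series. A cell was counted as a neuron when the unique molecular identifiers (UMIs, each standing for one captured transcript) of 6 neuronal genes outnumbered those of 7 progenitor genes. Among neurons, the members were chosen by at least 2 UMIs of *Onecut2*, *Chodl* and *Isl1* together, at most 1 UMI of *Tbr1* and 0 UMIs of *Gad1*, *Gad2*, *Dlx5* and *Trp73*, in barcodes with under 4% mitochondrial UMIs. They were labelled septal glutamatergic neurons, a label that the data bore out only in part, so that they are called gated neurons below.

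The septal explants came from 8 E11.5 embryos that carried PGKCre and Rosa26YFP, from 2 litters, and 4 E12.5 embryos that carried Dbx1Cre and Rosa26tdTomato, also from 2 litters. All were of the C57BL/6J strain, their labelled genotype is wild-type, and the cells of all 12 embryos were pooled into 1 droplet library of about 10000 input cells. The PGK promoter drives Cre in most tissues and Dbx1Cre marks cells with a history of *Dbx1* expression, so that age and reporter cannot be told apart and embryos cannot be separated. A telencephalic vesicle library of 3 wild-type C57BL/6J embryos, labelled E12 and given as E11.5 to E12 in the methods, pooled from 2 litters with 20000 input cells, is used below only to apply the same rule a second time. The study asked how *Dbx1* and the protocadherin gene *Pcdh8* act on each other and on cell identity in the developing cortex. It used ectopic expression and knockdown in embryos, among other experiments. These libraries served it to see where both genes are expressed together.

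The septum forms at the rostral midline of the telencephalon, next to a signalling centre that releases fibroblast growth factors. Its progenitors express zinc finger factors of the Zic family, and they give rise to glutamatergic, GABAergic, cholinergic and Cajal-Retzius neurons. Onecut2 is a cut homeodomain factor of newborn neurons, Isl1 a LIM homeodomain factor of several neuron classes, Chodl a C-type lectin of the cell surface, and Slc17a6 (VGLUT2) loads glutamate into synaptic vesicles.

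The gated neurons held 2652587 UMIs in all, with a median of 9158.5 per cell (5098 to 25648) and 2989 genes per cell. The other 1539 neurons had a median of 11391 UMIs. They comprised a pallial gate of 707 cells with at least 2 UMIs of *Tbr1*, a Cajal-Retzius gate of 219 cells with *Trp73*, a GABAergic gate of 280 cells with at least 2 UMIs of *Gad1*, *Gad2* and *Dlx5* together, and 333 cells in none of these. Pallial gate cells had 0 UMIs of *Trp73* and of the GABAergic genes, Cajal-Retzius gate cells 0 of the GABAergic genes, and GABAergic gate cells 0 of *Trp73* and at most 1 of *Tbr1*. Levels are given as CPM, the UMIs of a gene per 1000000 UMIs of the summed cells. The differentiation axis of a cell is the log2 ratio of its neuronal to its progenitor UMIs, each plus 1. Its median was 1.93 in gated neurons, 2.69 in other neurons and 1.54 in the 333 neurons in none of the gates, and these medians rest on genes of the rule. Each group is 1 library, cells are not replicates and no test was run. All intervals (Clopper-Pearson for shares, Poisson for sums of UMIs, conditional binomial for ratios) are at 95% and cover counting error only.

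The gate genes themselves are a description, since the members were selected on their UMIs. *Onecut2* stood at 434 CPM in gated neurons and 60.2 CPM in other neurons, *Chodl* at 153 and 7.20 CPM, and *Isl1* at 523 and 113 CPM. *Isl1* was as high in the GABAergic gate, at 533 CPM. Each member held between 2 and 45 UMIs of the 3 genes, with a median of 7. The 36 cells just inside the threshold, with a sum of 2, had 700 CPM of *Dlk1*, 7.73 CPM of *Shox2* and 10.3 CPM of *Slc17a6*. The 59 cells just outside, with a sum of 1 and otherwise meeting the rule, had 448, 3.20 and 24.0 CPM, so that *Slc17a6* alone of these was higher outside. A single UMI of *Gad1*, *Gad2* or *Dlx5* kept out 36 further cells, in which *Dlx2* stood at 434 CPM.

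*Slc17a6* was the one given marker that the rule did not use. It was lower in gated neurons than in other neurons, at 29.8 CPM (23.6 to 37.1) against 60.2 CPM (56.8 to 63.8), a ratio of 0.495 (0.389 to 0.622). Against neurons of like maturity the ratio was 0.584, and among cells whose neuronal UMIs exceeded 4 times the progenitor UMIs it was 0.801. It was found in 53 of 270 gated neurons (19.6%, 15.1 to 24.9%), in 62.1% of pallial gate cells and in 63.9% of Cajal-Retzius gate cells. In the GABAergic gate, which should lack the gene, 4 of 280 cells held a UMI (1.43%, 0.391 to 3.62%) at a median depth of 10417 UMIs, so that the share in gated neurons was above that background. With every cell thinned to 7500 UMIs, which left out 49 gated neurons, the shares were 18.1% of gated neurons, 47.6% of the pallial gate and 1.15% of the GABAergic gate. *Slc17a7* (VGLUT1) was found in 2 gated neurons and *Slc32a1*, the vesicular transporter for GABA, in 0 of 270, which allows a share of cells with a UMI of up to 1.11%, counting 0 cells as 3. *Chat*, the enzyme of acetylcholine synthesis, and *Lhx6* of ventral interneurons were also at 0 UMIs. Most gated neurons thus had a transcript of none of these transmitter genes at this depth.

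The 3 gate genes did not always occur together. The combination of *Onecut2* and *Isl1* without *Chodl* was the most frequent, with 77 cells, and 51 cells held all 3. *Isl1* without the others was seen in 36 cells, *Onecut2* alone in 29 and *Chodl* alone in 18. *Slc17a6* was found in 41.6% of the cells with *Onecut2* and *Isl1*, in 27.6% of those with *Onecut2* alone and in 17.6% of those with all 3. It was found in 0 of the 36 cells with *Isl1* alone, which allows a share of cells with a UMI of up to 8.33%. The combinations also differed in maturity, with a median axis of 3.20 for *Onecut2* and *Isl1*, 1.24 for *Isl1* alone and 0.781 for *Chodl* and *Isl1*, and the part of maturity in these shares was not tested. Those 36 cells also stood apart in *Dlx2*, a homeodomain factor of subpallial progenitors and GABAergic neurons, which 77.8% of them held, and in *Lhx5*, a LIM factor of the medial telencephalon, which 16.7% held. In the other combinations, *Dlx2* was found in 0.0 to 26.9% of cells and *Lhx5* in 50 to 86.2%.

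**Figure D1:**
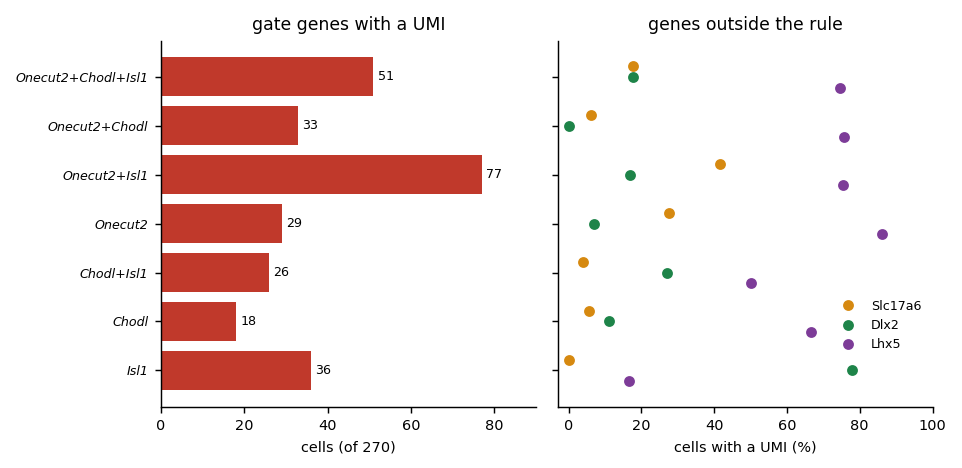
Number of gated neurons by which of the 3 gate genes had a UMI (left, bars) and the percentage of those cells with a UMI of *Slc17a6*, *Dlx2* or *Lhx5* (right, points). The 36 cells with *Isl1* alone had the highest share of *Dlx2* (77.8%) and the lowest of *Lhx5* (16.7%), with *Slc17a6* in 0 of them.

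Some subpallial genes followed the same division. *Dlx2* stood at 641 CPM in the cells with *Isl1* alone, 15 CPM in the 80 cells with *Onecut2* or *Chodl* but no *Isl1* and 112 CPM in the 154 cells with both. *Dlx1*, its linked partner, had 350, 1.25 and 63.4 CPM. *Gsx1*, a homeodomain factor of ventral progenitors, had 196 CPM, 0 UMIs and 25.1 CPM in the same order. *Nkx2-1*, which patterns the ventral telencephalon, had 137, 3.74 and 91.8 CPM. All 4 genes were thus highest in the cells with *Isl1* alone. Some pallial and midline genes lay the other way. *Neurog2*, a proneural factor of the pallium, had 56.4 CPM in the cells with *Isl1* alone, 600 CPM in those without *Isl1* and 185 CPM in those with both. *Neurog1*, its close relative, had 137, 815 and 382 CPM, *Lhx5* 32.6, 241 and 155 CPM, *Dbx1* 20.8, 110 and 91.8 CPM, and *Eomes*, which marks basal progenitors of the pallium, 0, 177 and 26.4 CPM. *Dlk1* did not divide the cells in this way, with 1428 CPM, 603 CPM and 1617 CPM. The septal factors *Zic4*, *Otx2* and *Six3* were present in all 3, with *Zic4* at 359, 484 and 563 CPM.

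Across the transcriptome, 7793 genes outside the rule had a mean CPM of at least 10 over gated and other neurons. Of these, 161 (2.07%) were at least 2-fold higher in gated neurons and 252 (3.23%) at least 2-fold lower, and the median ratio was 0.985. When other neurons were weighted to the same distribution along the differentiation axis, 138 genes (1.77%) were higher and 194 (2.49%) lower, with a median ratio of 0.997. The terms higher and lower refer to these ratios throughout, and the same cells served for the gate and the comparison. The counts of each gene list below stand beside the 2.07% higher and 3.23% lower over all genes.

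Of the 15 genes with the highest ratios, 14 are reported here, which comprised transcription factors, signalling molecules and genes of unknown function. When members were instead chosen by at least 1 UMI of *Slc17a6* and none of *Tbr1* (below, the *Slc17a6* gate), the markers by which the study describes septal excitatory neurons, 6 of the 14 (*Col16a1*, *Gm29478*, *Gsx1*, *Prok2*, *Prss23* and *Slc8b1*) were no longer 2-fold higher. The ratios of all of these but *Prss23* were then below 1. The *Slc17a6* gate set no limit on *Gad1*, *Gad2*, *Dlx5* or *Trp73*, and its other neurons were all neurons outside it. Only 48 of the 270 gated neurons met it, so that the remaining ones counted among its other neurons. *Shox2*, a short stature homeobox factor (chr3:66971727-66981771, GRCm38), led with 34.7 CPM (28.0 to 42.5) in gated neurons and 1.75 CPM (1.21 to 2.44) in others, a ratio of 19.8 (13.2 to 30.3). It was found in 39 gated neurons (14.4%) and had 0 UMIs in the Cajal-Retzius gate. *Gsx1* (chr5:147188696-147190947) had 39.2 and 6.48 CPM, a ratio of 6.05 that rested on 27 cells and was 0.111 under the *Slc17a6* gate. Both factors were thus detected in a minority of gated neurons.

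Among the signalling genes, *Dlk1* (chr12:109452823-109463336), an imprinted membrane protein related to Notch ligands, had 1286 CPM in gated neurons and 234 CPM in others, a ratio of 5.49 (5.25 to 5.74). It was detected in 245 of 270 gated neurons (90.7%) and 43.0% of others, and the GABAergic gate came nearest, at 587 CPM. *Crabp1* (chr9:54764748-54773110), which binds retinoic acid in the cytoplasm, had 267 and 39.2 CPM, a ratio of 6.83 (6.15 to 7.57), but was found in only 45 gated neurons (16.7%). *Prok2* (chr6:99711299-99726392), a secreted prokineticin, had a ratio of 5.04 (3.49 to 7.25). *Tril*, an accessory protein of Toll-like receptors, had 17.3 and 2.88 CPM. *Prss23*, a serine protease, had 25.3 and 4.32 CPM. *Col16a1*, a fibril-associated collagen, had a ratio of 4.85 (3.36 to 6.95). *Rassf4*, of the Ras association domain family, was found in 51.1% of gated neurons, with 105 and 21.5 CPM, and the mitochondrial sodium and calcium exchanger *Slc8b1* had 17.3 and 3.55 CPM.

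Of the remaining 4 genes, 3 are long intergenic non-coding RNAs in the annotation. *Gm29478* (chr9:91404474-91562818) starts beyond the 3′ end of *Zic4* (chr9:91362413-91389348), on the same strand, and had 78.0 CPM in gated neurons and 12.7 CPM in others, a ratio of 6.16 (5.10 to 7.45). It was found in 45.9% of gated neurons and 9.81% of others. *D930028M14Rik* (chr7:25152457-25156627) had 453 and 77.9 CPM, a ratio of 5.82 (5.39 to 6.28). *Dbpht2* (chr12:74296668-74302008) had 30.5 and 5.45 CPM. The protein-coding gene *3632451O06Rik* (chr14:49675952-49783383) had 122 and 17.2 CPM, a ratio of 7.09 (6.06 to 8.28).

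**Figure D2:**
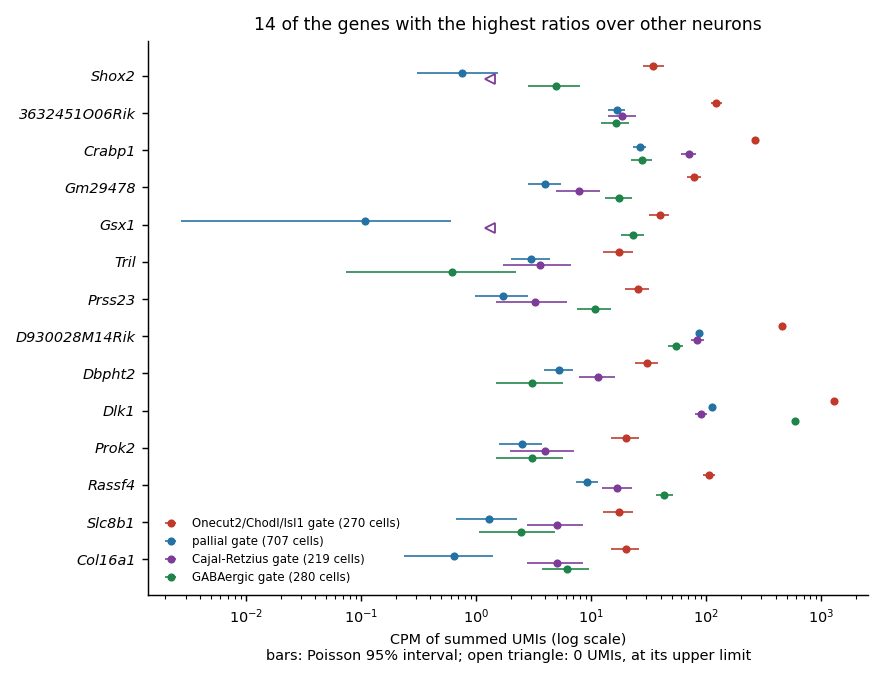
CPM (log scale) of 14 of the genes with the highest ratios of gated over other neurons in gated neurons and in the pallial, Cajal-Retzius and GABAergic gates, with Poisson 95% intervals as bars and open triangles at the upper limit of genes with 0 UMIs. For each of the 14 genes the gated neurons had the highest level of the 4 groups, and the GABAergic gate was second for 7 of them, among these *Dlk1* (587 CPM), *Rassf4* (43.1 CPM) and *Gsx1* (23.1 CPM).

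The 10 genes with the lowest ratios were high in other gates or in blood. The rule kept out the cells of those gates, which favours low ratios of their genes. *Calb2* (calretinin, a calcium-binding protein) had 3.02 CPM in gated neurons against 311 CPM in others, with 555 CPM in the pallial gate. *Samd3*, a sterile alpha motif protein, had 1.51 and 116 CPM, and *Barhl2*, a BarH-like homeodomain factor, 2.26 and 76.1 CPM. *Shisa8*, of a family that regulates glutamate receptors, had 1 UMI in gated neurons and 148 CPM in the Cajal-Retzius gate. *Dlx6os1* and *Sp9* belong to GABAergic neurons, with 389 and 445 CPM in the GABAergic gate and 1.13 and 1.88 CPM in gated neurons. The last 4, *Alas2*, *Hba-a1*, *Hba-x* and *Hba-a2*, belong to red blood cells. Among the other neurons, 19 barcodes had over 1% globin UMIs, and 0 gated neurons did. Without those 19 barcodes, none of the 4 genes was 2-fold lower, and the ratio of *Hba-a1* was 1.14 in place of 0.0240.

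Genes of the septum and of rostral midline patterning were higher as a group than in all other neurons, while the GABAergic gate came close. Over the list they summed to 2453 CPM in gated neurons, 2259 CPM in the GABAergic gate, 1236 CPM in the Cajal-Retzius gate and 1053 CPM in the pallial gate. Of 15 such genes compared, 8 were higher (53.3%, against 2.07% over all genes) and 0 lower, with a median ratio of 2.14. Of the 8, 6 stayed higher against neurons of like maturity. Under the *Slc17a6* gate, only *Otx2*, *Six3* and *Dbx1* of the 8 stayed at least 2-fold higher. *Otx2*, a homeodomain factor of the forebrain midline, had 205 and 43.5 CPM (ratio 4.71, 4.22 to 5.25) and was found in 77.4% of gated neurons. *Six3*, a rostral homeodomain factor, had 167 and 51.6 CPM (3.24, 2.89 to 3.63), and *Zic4* 513 and 188 CPM (2.73, 2.56 to 2.91). The secreted growth factor *Fgf8* had 73.5 and 19.0 CPM (3.87, 3.24 to 4.62), but in 23.3% of gated neurons, and *Fgf17* had 81.4 and 38.0 CPM. *Dbx1*, the homeodomain factor at the centre of the study, had 88.2 and 26.0 CPM (3.39, 2.89 to 3.97). Its level in the Cajal-Retzius gate was as high, at 96.3 CPM. *Nr2f6*, an orphan nuclear receptor, and *Igfbp5*, which binds insulin-like growth factors, had ratios of 3.18 and 2.48. *Zic1*, present in 98.5% of gated neurons, reached 682 against 436 CPM, a ratio of 1.57, with 659 CPM in the GABAergic gate. *Zic2* was not higher, with a ratio of 0.946.

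Of 22 neurogenic factors, 2 were higher (9.09%) and 8 lower (36.4%), against 2.07% and 3.23% over all genes. The median ratio was 0.714. *Neurog1* was higher, at 482 against 177 CPM (2.72, 2.54 to 2.90), but had a ratio of 0.911 under the *Slc17a6* gate. It encodes a proneural protein. *Neurod6* had 7.54 against 174 CPM, *Neurod2* 16.2 against 230 CPM, the helix-loop-helix factor *Ebf1* 20.4 against 166 CPM and *Eomes* 68.6 against 233 CPM. *Nhlh1*, *Scrt2*, *Myt1l* and *Ebf3* were the other lower ones. Under the *Slc17a6* gate, *Neurod2*, *Eomes* and *Nhlh1* were no longer 2-fold lower, nor was *Ebf3* against neurons of like maturity. *Sox11* and *Sox4*, which all young neurons express, differed little, with ratios of 0.860 and 1.06.

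Onecut and LIM genes were divided. Of 8 compared, *Lmo1*, a LIM-only cofactor, lay just past 2-fold at 57.7 against 28.6 CPM (2.02, 1.67 to 2.42) and fell short of it in 7 of the other settings, and *Lhx9*, *Lhx1*, *Lhx2* and *Lmo2* were lower, with ratios of 0.251, 0.279, 0.307 and 0.324. The ratio of *Lhx1* was 0.659 when cells with GABAergic genes or *Trp73* were left out of the other neurons. Under the *Slc17a6* gate, *Lhx9*, *Lhx2* and *Lmo2* were no longer 2-fold lower. *Lhx5* had 165 against 104 CPM, a ratio of 1.59 (1.43 to 1.76), and 202 CPM in the Cajal-Retzius gate. *Onecut3*, a paralog of *Onecut2*, was too low for the comparison of all genes. It had 16.6 CPM (12.1 to 22.3) against 1.90 CPM (1.34 to 2.62) and was found in 28 gated neurons (10.4%) and 1.82% of others. Among 17 other neuronal factors, *Prox1* and *Foxp4* were higher (2.21 and 2.14) and *Barhl2*, *Pou3f2*, *Tshz1* and *Uncx* lower, with a median ratio of 1.13. *Foxp4*, *Tshz1* and *Uncx* were within 2-fold or turned under the *Slc17a6* gate. *Foxp4* was also not 2-fold higher where neuronal UMIs exceeded 4 times the progenitor UMIs, nor was *Prox1* with at least 1 gate UMI.

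Of 15 factors of pallial projection neurons, 1 was higher (6.67%) and 7 lower (46.7%), against 2.07% and 3.23% over all genes. The median ratio was 0.505. The list summed to 2774 CPM in the pallial gate, a class that the rule kept out by its limit on *Tbr1*. The lower ones were *Nfix* (0.119), *Nfib* (0.190), *Etv1* (0.201), *Bcl11b* (0.213), *Emx1* (0.288), *Bcl11a* (0.325) and *Nfia* (0.342), of which only *Etv1* and *Bcl11b* stayed 2-fold lower under the *Slc17a6* gate. *Fezf2*, a zinc finger factor that directs deep layer fate in the cortex, went the other way. It had 341 CPM in gated neurons against 154 CPM, a ratio of 2.21 (2.05 to 2.38), and was found in 84.1% of them, while the pallial gate had 159 CPM. Against neurons of like maturity its ratio was 1.97, and it was not 2-fold higher under the *Slc17a6* gate either. The same held when cells with GABAergic genes or *Trp73* were left out of the other neurons. Of 5 Cajal-Retzius genes, *Calb2*, *Rspo3* and *Cacna2d2* were lower and *Ndnf*, a secreted neuron-derived factor, was higher at 35.1 against 7.41 CPM (4.73, 3.61 to 6.18). The Cajal-Retzius gate itself had 6.11 CPM of *Ndnf*. *Reln*, the extracellular protein for which Cajal-Retzius cells are known, had 49.8 against 57.2 CPM.

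The list of GABAergic and cholinergic genes shares its members with the classes that the rule kept out. Of 9 compared, *Dlx6os1*, *Sp9*, *Slc32a1* and *Lhx8* were among the 5 that were lower and *Nkx2-1* was higher, at 70.9 against 28.1 CPM (2.52, 2.12 to 2.98). Under the *Slc17a6* gate the ratio of *Nkx2-1* was 0.495. *Slc32a1* was at least 24.9-fold lower, counting its 0 UMIs in all gated neurons as 3. *Dlx1* and *Dlx2* had ratios of 0.773 and 0.943, with 81.1 and 150 CPM in gated neurons against 564 and 842 CPM in the GABAergic gate. When cells with *Gad1*, *Gad2*, *Dlx5* or *Trp73* were left out of the other neurons, *Dlx6os1* had a ratio of 1.54, *Sp9* of 2.31 and *Lhx8* of 2.52. The lower levels of these 3 genes thus rested on those cells. Of 4 glutamatergic genes compared, *Slc17a6* and the AMPA receptor subunit *Gria2* (11.3 against 43.0 CPM) were lower.

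Axon guidance genes leaned lower, with 9 of 24 lower (37.5%, against 3.23% over all genes), 1 higher (4.17%, against 2.07%) and a median ratio of 0.721. The receptor genes *Nrp2* (2.26 against 37.4 CPM), *Epha5* (4.52 against 64.4 CPM) and *Robo2* (3.39 against 41.7 CPM) had few UMIs in gated neurons, as was the ligand *Efna3* (4.90 against 62.9 CPM). *Slit2*, a midline repellent, was the higher one, at 46.0 against 16.6 CPM (2.77, 2.23 to 3.42). Of 18 adhesion genes, 6 were lower (33.3%, against 3.23% over all genes) and *Pcdh8* was higher (5.56%, against 2.07%). *Pcdh8*, a delta protocadherin, had 32.8 CPM (26.3 to 40.5) against 13.5 CPM (11.9 to 15.2), a ratio of 2.43, and 35.7 CPM in the GABAergic gate. *Pcdh9*, of the same family, was lower at 3.39 against 24.0 CPM. *Cntnap2*, a neurexin-like adhesion protein, had 57.3 against 233 CPM and *L1cam* 10.2 against 39.6 CPM.

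Of 23 cytoskeletal genes compared, 21 were within 2-fold, and the shares past it were close to those over all genes. Of the remaining 2, the neurofilament gene *Nefl* was higher (82.2 against 36.7 CPM) and the kinesin *Kif5c* lower (159 against 350 CPM, and within 2-fold against neurons of like maturity). The list had a median ratio of 0.723 and of 0.862 against neurons of like maturity. Of 18 synaptic vesicle genes, 4 were lower (22.2%, against 3.23% over all genes), among them *Nrxn3*, *Rab3a* and *Chga*, and 0 were higher. Against neurons of like maturity *Rab3a* and *Chga* were within 2-fold, and under the *Slc17a6* gate their ratios were 1.16 and 1.17. *Syt1*, the calcium sensor of vesicle release, had 67.1 against 34.9 CPM, a ratio of 1.92. Among 7 ion channel genes, the potassium channel *Kcnh2* was higher (51.3 against 19.3 CPM). The neuropeptide *Adcyap1*, the only compared gene of the monoamine and peptide list, had a ratio of 0.541.

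In the cell cycle and Notch lists, 8.70% and 22.2% of the compared genes were higher, against 2.07% over all genes. *Cdkn1c*, an inhibitor of cyclin-dependent kinases, was found in all 270 gated neurons, at 4490 CPM against 1449 CPM, a ratio of 3.10 (3.03 to 3.17). *Ccnd1* (cyclin D1) had 434 against 144 CPM. The GABAergic gate had 2846 CPM of *Cdkn1c* and 143 CPM of *Ccnd1*, and the pallial gate had 712 and 67.7 CPM. Under the *Slc17a6* gate neither was 2-fold higher, and the ratio of *Ccnd1* was 0.421. These were the 2 higher genes of 23 in the cell cycle list, whose proliferation genes stayed within 2-fold, as *Mki67* did at 35.4 against 29.2 CPM. Of 9 genes of the Notch pathway and neurogenesis, the antiproliferative *Btg2* (795 against 268 CPM) and *Hes6* (1370 against 624 CPM) were higher and 0 were lower. Neither was 2-fold higher under the *Slc17a6* gate, nor was *Hes6* against neurons of like maturity (1.87). *Dll1*, *Dll3* and *Mfng* had ratios of 1.51, 1.76 and 1.94.

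**Figure D3:**
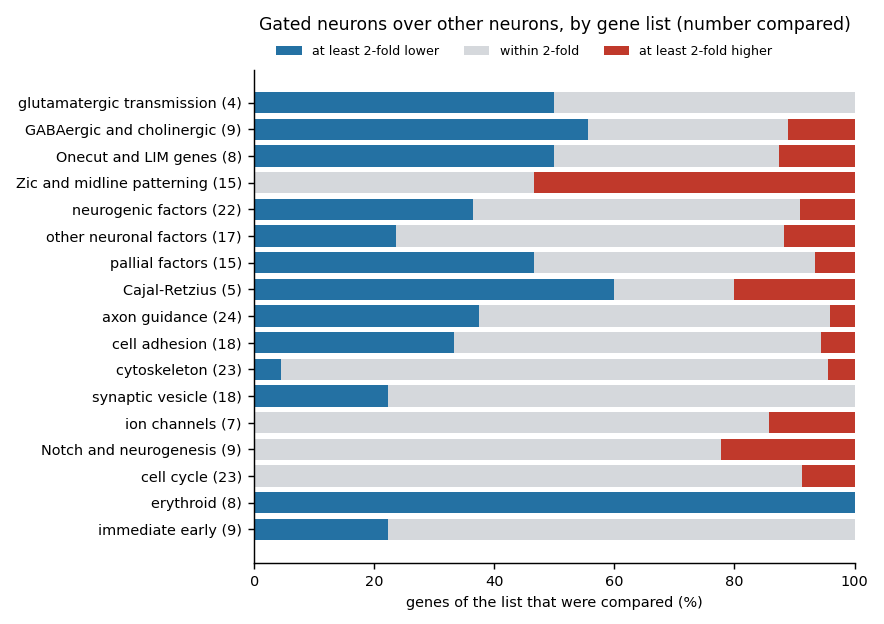
Percentage of the compared genes of each list that were at least 2-fold lower, within 2-fold or at least 2-fold higher in gated neurons, with the number compared in parentheses. The Zic and midline patterning list had the largest higher share, 8 of 15. The erythroid list was lower in all 8 genes, none of which stayed 2-fold lower without the 19 globin-rich barcodes among the other neurons. Over all genes, 2.07% were higher and 3.23% lower.

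Markers of non-neuronal cells were low or at the level of other neurons in gated neurons. Of 9 macrophage genes, 8 had 0 UMIs and *Aif1* had 1, for a summed level of 0.377 CPM against 15.5 CPM in all kept cells. The 9 endothelial genes summed to 17.3 CPM, against 13.6 CPM in other neurons and 20.9 CPM in all kept cells, with *Ramp2* the most abundant (18 UMIs) and *Cldn5*, *Kdr*, *Cdh5*, *Flt1* and *Esam* at 0. The 9 mesenchymal genes summed to 7.16 CPM, against 44.7 CPM in all kept cells. Erythroid genes were not near 0, with *Hbb-y*, an embryonic globin, in 98.1% of gated neurons. They summed to 661 CPM, close to the 618 and 634 CPM of the Cajal-Retzius and GABAergic gates. Of 9 immediate early genes compared, *Junb* and *Ier3* were lower (22.2%, against 3.23% over all genes) and 0 were higher, with a median ratio of 0.740.

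The gated neurons were not uniform along the differentiation axis. They were divided into early, middle and late cells, 90 each, whose medians of the axis were 0.683, 1.93 and 3.41. The axis is built from genes of the rule, so that its own genes are not given. *Gsx1* stood at 66.1, 46.4 and 3.46 CPM in the early, middle and late cells, *Dlx2* at 239, 179 and 27.6 CPM and *Fgf17* at 158, 61.5 and 19.6 CPM. *Gsx1* and *Dlx2* were also highest in the cells with *Isl1* alone, whose median of the axis was 1.24. The part of those cells in this order was not tested. The proliferation genes *Mki67* (72.6, 29.0 and 2.3 CPM) and *Top2a* (309, 123 and 12.7 CPM) followed the same order. So did *Chodl*, a gate gene and given as a description, at 228, 148 and 78.3 CPM.

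A second set of genes was highest in the late cells. *Crabp1* had 18.4, 31.3 and 766 CPM, *3632451O06Rik* 7.59, 23.2 and 341 CPM, *D930028M14Rik* 74.8, 242 and 1064 CPM and *Dbpht2* 1.08, 12.8 and 79.5 CPM. The neurofilament genes *Nefl* (0, 3.48 and 248 CPM) and *Ina* (32.5, 241 and 1485 CPM) and *Onecut3* (4.34, 3.48 and 42.6 CPM) lay with them. Of the other gate genes, also a description, *Onecut2* had 123, 347 and 850 CPM and *Isl1* 256, 399 and 930 CPM. A last set varied less, and each of its genes was lowest in the early cells. *Dlk1* stood at 1149, 1366 and 1352 CPM and *Zic4* at 423, 560 and 562 CPM. *Six3* had 150, 158 and 196 CPM and *Otx2* 163, 231 and 225 CPM. *Otx2* was found in 66.7% of early cells (55.9 to 76.3%) and 85.6% of middle cells (76.6 to 92.1%). After thinning to 7500 UMIs these intervals were 39.9 to 64.1% and 68.7 to 88.6%. They cover counting error only, not variation between embryos, and the difference between early and middle cells was not tested.

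*Slc17a6* belonged to the late set. It was found in 2 of the 90 early cells (2.22%, 0.270 to 7.80%), 7 of the middle cells (7.78%) and 44 of the late cells (48.9%, 38.2 to 59.7%), with 3.25, 10.4 and 77.2 CPM. In pallial gate cells of the same ranges of the axis, the shares were 55.6%, 60.3% and 64.0%, with 59.2, 94.4 and 85.6 CPM. The shares of gated neurons and of the pallial gate thus lay further apart at the start of the axis than at its end. The interval of the pallial gate at the end was 59.2 to 68.6%. Within the early range, pallial gate cells had a median axis of 1.12 and a median of 15323.5 UMIs. Early gated neurons had 0.683 and 9301.5. The part of maturity within the ranges was not tested. After thinning to 7500 UMIs, the shares in gated neurons were 2.82%, 4.29% and 43.8%, against 36.2%, 49.5% and 47.8% in the pallial gate.

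**Figure D4:**
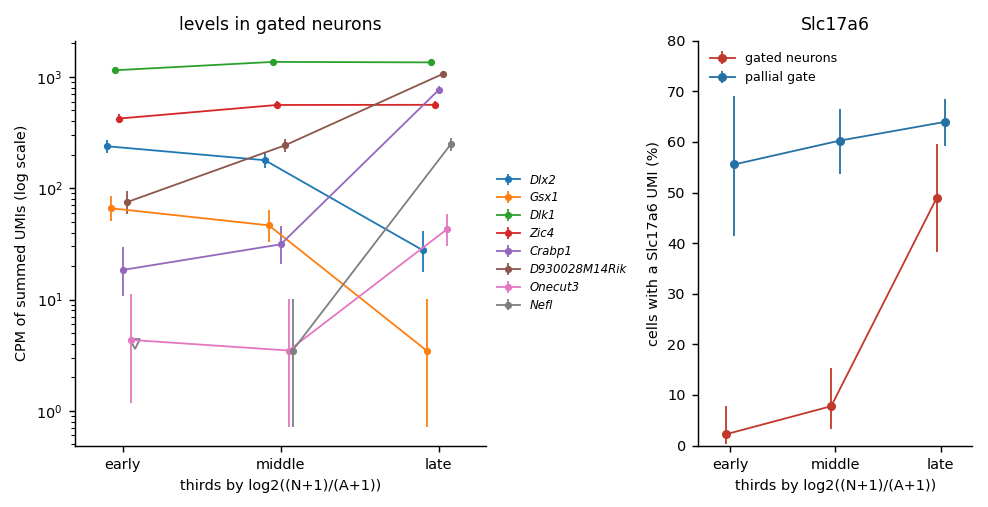
Left, CPM (log scale) of 8 genes in the 90 early, 90 middle and 90 late gated neurons along the differentiation axis, with Poisson 95% intervals and an open triangle at the upper limit where a gene had 0 UMIs. Right, percentage of cells with a *Slc17a6* UMI in gated neurons and in pallial gate cells of the same ranges, with exact 95% intervals, from 2.22% to 48.9% in the former and from 55.6% to 64.0% in the latter.

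The reporters divide the cells by embryo type only in part, and some cells had a UMI of neither. *YFP* was found in 186 of 270 gated neurons (68.9%) and 70.6% of others. *tdTomato*, carried by the E12.5 Dbx1Cre embryos, was found in 33 gated neurons (12.2%, 8.56 to 16.7%) and 8.90% of others (7.53 to 10.4%), with 10.0% in the Cajal-Retzius gate and 4.29% in the GABAergic gate. The level of *tdTomato* was 38.8 CPM (31.7 to 47.1) in gated neurons and 16.4 CPM (14.6 to 18.3) in others. Both reporters were found together in 5 gated neurons.

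Gated neurons with *tdTomato* had 6.10 CPM of *Nkx2-1*, in 1 cell, whereas the 131 with at least 3 UMIs of *YFP* had 59.5 CPM and the 84 without *YFP* 85.1 CPM. Their *Dbx1* level was 97.7 CPM, beside 88.9 and 89.0 CPM in the other 2 sets. Of the 33 cells with *tdTomato*, 28 had no *YFP* UMI and belong to the last set as well. *Onecut2* stood at 714, 437 and 503 CPM in the 3 sets, in the same order, and *Chodl* at 244, 118 and 217 CPM. Both are gate genes, given as a description, and the 33 cells limit any comparison.

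The same rule applied to the telencephalic vesicle kept 117 of 2580 neurons (4.53%, 3.76 to 5.41%), with a median of 7164 UMIs. Only ratios within each library are compared, because kits and software versions differed. Of 9188 genes compared there, 273 (2.97%) were at least 2-fold higher and 227 (2.47%) at least 2-fold lower. All 14 genes reported above with the highest ratios in the septal explants were at least 2-fold higher in the vesicle. Their ratios ran from 3.00 for *Gsx1* to 11.1 for *Prok2* (3.43 to 32.1), with 5.65 for *Shox2*. *Prok2*, *Slc8b1*, *Col16a1* and *Prss23* lay below the minimum of CPM in the vesicle. *Prok2* and *Slc8b1* (3.52, 1.22 to 8.39) each rested on 6 UMIs in the gated neurons there. The 10 with the lowest ratios were also at least 2-fold lower there, but 4 of them are red blood cell genes. For these, globin-rich barcodes were not removed in the vesicle. *Dlx6os1* and *Sp9* go with the GABAergic genes that the rule kept out. *Calb2* was highest in the pallial gate of the septal explants and *Samd3*, *Barhl2* and *Shisa8* in the Cajal-Retzius gate. The rule kept out those classes too, in both libraries. *Shisa8*, below the minimum of CPM in the vesicle, rested on 1 UMI in gated neurons (0.00409 to 0.922). The interval of *Alas2* reached 0.964. Of the 142 genes higher in the septal explants and compared in both, 77 were higher in the vesicle (54.2% of the 142 and 55.0% of the 140 higher there), where 1.93% of the 7261 genes compared in both were. Of 216 lower genes, 67 were lower in the vesicle (31.0%, and 60.9% of the 110 lower there), against 1.51% of all. The same rule chose the cells in each library, which favours genes that go with the gate genes in both.

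Members of the lists differed in how they carried over. *Zic4* (6.06), *Otx2* (4.87), *Dbx1* (3.71), *Neurog1* (2.85), *Fezf2* (2.06) and *Ndnf* (10.0) were higher in the vesicle too. *Fgf8* had a ratio of 0.815 (0.295 to 1.81), *Fgf17* of 0.619 (0.281 to 1.19) and *Pcdh8* of 1.07 there, and the intervals of all 3 reached across 1. *Slc17a6* had a ratio of 0.795 (0.650 to 0.964) in the vesicle, lower than in other neurons as in the septal explants but within 2-fold.

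**Figure D5:**
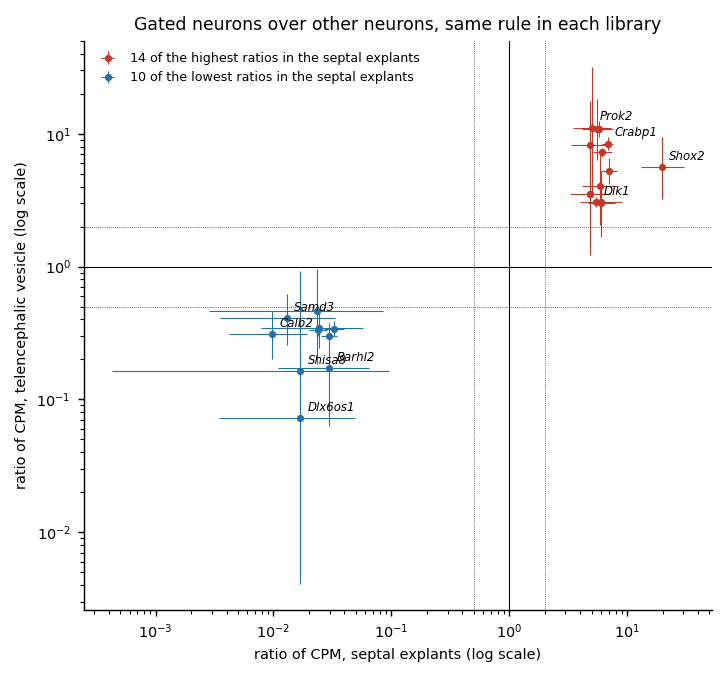
Ratio of CPM of gated over other neurons in the telencephalic vesicle against that in the septal explants (both log scales), for 14 of the highest and the 10 lowest ratios of the septal explants, with exact 95% intervals and dotted lines at 2-fold. The 14 genes lie at 3.00 or more in the vesicle and the 10 at 0.463 or less, genes below the minimum of CPM there included.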

How the data were processed

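Both libraries were droplet single cell libraries, 1 per tissue. The authors deposited raw counts, UMIs per gene and barcode, without normalisation, made with Cell Ranger 2.1.1 (septal explants, mm10) and 7.1.0 (telencephalic vesicle), as the submitters' processing notes give them. The matrices held 83103280 UMIs in 5827 barcodes and 194821794 UMIs in 14283 barcodes. 1 barcode sequence occurred in both libraries and was not a member's.

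UMIs were summed per group and scaled to CPM. A gene was compared at a mean CPM of at least 10 over both groups. Genes of the rule, mitochondrial, reporter and sex-linked genes were left out. A group at 0 was set to 3 UMIs for a ratio. Genes were named as the 15 highest and 10 lowest ratios, the members of the gene lists past 2-fold, the genes of the rule, *Dbx1*, *Pcdh8* and the reporters, except for some genes that are not reported here but are counted in the lists, and others named were chosen after their values were seen. Weighting for maturity used 5 bins of the axis. Thinning drew 7500 UMIs per cell without replacement. Libraries were matched by gene identifier. The members, gene lists and named-gene rule were chosen with earlier results of these data known. Doublets were left in. Scrublet in scanpy 1.11.5 marked 5 of 5649 barcodes (0.0885%) at its automatic threshold, too few to be taken as working, so that an alternative removed the 255 with the highest scores, 9 of them members. The ratio script was tested on simulated data. Coordinates are those of GENCODE M21 on GRCm38 and apply to the septal counts. Python 3.11.15, numpy 2.4.6, scipy 1.17.1 and pandas 2.3.3 were used.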

Additional observations from a re-analysis of the deposited data

Results flagged for a closer look

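Among the named genes past 2-fold in the septal explants, 2 had ratios whose intervals lay on opposite sides of 1 in the libraries under the same rule. *Cntnap2* had a ratio of gated over other neurons of 0.246 in septal cells and of 1.81 in vesicle cells. *Lhx1*, a LIM homeodomain factor with 329 CPM in the Cajal-Retzius gate of the septal explants, had ratios of 0.279 and 1.53 (1.20 to 1.93) in the same order, and the septal ratio was 0.659 without cells with GABAergic genes or *Trp73* among the other neurons. Neither difference between the libraries was tested, and each library has 1 sample.

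The gene list of the telencephalic vesicle holds an added LacZ sequence, which no comparison used. It had 11 UMIs in 9 cells, in a library from embryos described as wild-type. No background level for this sequence was measured.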

How the results depend on the processing

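The members as a share of neurons stayed within their interval without the mitochondrial filter, with a filter at 3 MAD and with the highest Scrublet scores removed. The share moved to 18.2% with at least 1 gate UMI, 12.9% with at least 3, 11.1% where neuronal UMIs exceeded 4 times the progenitor UMIs and 4.20% (76 cells) under a gate of *Slc17a6* without *Tbr1*, which held 48 of the 270 gated neurons (17.8% of these and 63.2% of the 76). The share of members with *Slc17a6* was 35.7% where neuronal UMIs exceeded 4 times the progenitor UMIs, and its ratio, below 1 in the 12 settings that gave one, ran from 0.435 to 0.801. The 161 genes at least 2-fold higher and 252 genes at least 2-fold lower followed the minimum of CPM. They became 272 and 404 at a mean of 5, 85 and 128 at 25, and 4268 and 1064 without one. More or fewer genes were compared in these settings. The 3 UMIs set for a group at 0 are 1.13 CPM in gated neurons and 0.154 CPM in others. Without a minimum, a gene at 0 UMIs in gated neurons and few in others could thus count as higher. Under this *Slc17a6* gate, set here on the markers the study names for septal excitatory neurons, 248 genes were higher, 17 of 37 named higher and 39 of 62 named lower genes stayed past 2-fold, and 12 reported ratios crossed 1: *Ccnd1* 0.421, *Chga* 1.17, *Col16a1* 0.589, *Fgf17* 0.546, *Gm29478* 0.694, *Gsx1* 0.111, *Neurog1* 0.911, *Nkx2-1* 0.495, *Nrp1* 1.18, *Prok2* 0.399, *Rab3a* 1.16 and *Slc8b1* 0.919. Both the chosen cells and the other neurons changed in this setting, since gated neurons outside the *Slc17a6* gate counted among its other neurons. The cause was not tested. With other neurons free of GABAergic genes and *Trp73*, *Dlx6os1* (1.54), *Lhx8* (2.52) and *Sp9* (2.31) crossed 1, and *Slc32a1*, at 0 UMIs, gave no ratio. *Fezf2* and *Fgf17* were no longer 2-fold higher against those neurons. In alternatives chosen after seeing the data, removing globin-rich barcodes gave *Hba-a1* 1.14, *Hba-a2* 1.07, *Hbb-bh1* 1.11, *Hbb-bt* 1.12 and *Hbb-y* 1.10, and removing the 36 members with *Isl1* alone left 36 of 37 named higher and 59 of 63 named lower genes past 2-fold. Against neurons of like maturity, 32 and 57 stayed past 2-fold, without *Fezf2*, *Fgf17*, *Hes6*, *Igfbp5* and *Lmo1* among the higher and *Chga*, *Ebf3*, *Kif5c*, *Nrcam*, *Rab3a* and *Slc17a6* among the lower. No paired analysis was possible because each tissue has 1 library. Depth limits genes at a few UMIs per 1000000, such as *Slc17a7* and *Chat*.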
